A study of Mus musculus with 30 samples.

Results

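The immunity-related GTPases (IRG) were examined as 10 genes of the 54146 in the count table. They were found by symbol through their Ensembl identifiers, and all 10 listed symbols were present. Irgm1, Irgm2 and Igtp are the IRGM regulators, and Iigp1, Tgtp1, Tgtp2, Gm12185, Gm4951, BC023105 and Gm12250 were taken as the 7 effector or effector-like genes. The RNA came from J774A.1, a mouse macrophage-like cell line, as 3 wild-type clones (WT1, WT2 and WT3) and 2 knockout clones (KO1 and KO2). Both KO clones carried a homozygous CRISPR-Cas9 deletion of B2_Mm2.Dicer1, a SINE copy within Dicer1's first intron, while each WT clone grew out of 1 unedited cell. Cells of every clone were either left untreated (UT) or given mouse interferon gamma (IFNG) at 100 ng/mL for 4 h, and 3 polyA RNA-seq libraries were sequenced for each clone and treatment, 30 in all. Each clone is a single-cell isolate, and the KO clones had also been electroporated with Cas9 and guides, so deletion, editing and clone of origin cannot be told apart from 2 KO clones. The labels do not say that the 3 libraries of a group were separate cultures, and p-values therefore measure the spread between these libraries, which may be technical.

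Counted fragments per library ranged from 15566122 to 37992642, and 1 fragment in a library of median depth equals 0.0422 CPM, the read count scaled by the normalized library size. All 6 macrophage markers were at a mean of at least 1 CPM, with a summed level of 4014 to 6573 CPM, whereas the T cell, B cell and epithelial marker lists stayed at or below 0.158 CPM and the fibroblast list at 0.331 to 2.92 CPM. Dicer1, the gene that holds the deleted intronic element, lay at 71.5 to 105 CPM in the 6 KO libraries and 132 to 171 CPM in the 9 WT libraries after IFNG, without overlap, against 70.5 to 108 CPM and 96.8 to 130 CPM before it. The element itself is intronic and was not counted.

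IRG proteins are interferon-inducible GTPases of cell-autonomous defence in mice. The effectors load onto the vacuoles of intracellular parasites and bacteria such as Toxoplasma gondii and Chlamydia and help to break them open. The IRGM regulators reside on the membranes of the cell's own organelles, where they hold effectors in the inactive GDP-bound state, and a cell therefore needs both classes in balance.

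The classes were taken from knowledge of the family, and the coding sequence that tells them apart is shown here where it could be read. IRGM proteins carry a methionine in place of the conserved lysine of the first nucleotide-binding motif. The motif was searched with either of these residues, and no other residue was allowed there. In GENCODE vM21 transcripts (GRCm38, the same build as mm10) the 24 bases of that motif read as follows, 5′ to 3′ on the coding strand, with the discriminating codon in capitals (ATG for methionine, AAG for lysine).
Irgm1: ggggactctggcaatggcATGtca
Irgm2: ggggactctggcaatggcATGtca
Igtp: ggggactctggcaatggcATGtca
Tgtp1: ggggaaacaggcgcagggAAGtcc
Tgtp2: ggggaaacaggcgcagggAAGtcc
Gm12185: ggggagactggggctggaAAGtcc
They lie at chr11:48866761-48866784 (minus strand, Irgm1), chr11:58219695-58219718 (plus, Irgm2), chr11:58206275-58206298 (plus, Igtp), chr11:48987667-48987690 (minus, Tgtp1), chr11:49059534-49059557 (minus, Tgtp2) and chr11:48916138-48916161 (minus, Gm12185), each within 1 exon. The 3 regulators shared all 24 bases. Iigp1 and Gm4951 also had the lysine codon AAG, and the Gm12185 reading frame of 835 codons held the motif 2 times. BC023105 and Gm12250 had no coding transcript in this annotation, so their class rests on family membership alone.

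Promoter windows from 250 bases before to 50 bases after the RefSeq start (GRCm38.p6) were available for 7 members. They were searched on both strands for the gamma-activated sequence TTCNNNGAA (GAS), a site through which IFNG acts on promoters, and for the core of the interferon-stimulated response element GAAANNGAAA (ISRE), which is bound by IRF proteins. The stretches around the matches are shown, since every member responded to IFNG, with matched bases in capitals and in the direction of transcription.
Irgm1: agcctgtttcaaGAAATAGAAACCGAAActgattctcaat
Irgm2: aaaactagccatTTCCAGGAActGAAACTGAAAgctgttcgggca
Igtp: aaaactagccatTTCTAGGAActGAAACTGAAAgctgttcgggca
Tgtp1: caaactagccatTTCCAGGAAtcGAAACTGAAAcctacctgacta
Tgtp2: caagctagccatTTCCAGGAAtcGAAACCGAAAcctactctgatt
Gm12185: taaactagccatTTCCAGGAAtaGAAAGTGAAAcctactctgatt
Gm12250: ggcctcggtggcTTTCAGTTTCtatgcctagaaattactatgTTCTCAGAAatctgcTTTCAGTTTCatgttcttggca
The stretches lie at chr11:48871423-48871462 (minus strand, Irgm1), chr11:58214890-58214934 (plus, Irgm2), chr11:58199499-58199543 (plus, Igtp), chr11:48992302-48992346 (minus, Tgtp1), chr11:49064261-49064305 (minus, Tgtp2), chr11:48927236-48927280 (minus, Gm12185) and chr11:58183740-58183818 (plus, Gm12250). An ISRE core was found in 7 of the 7 windows and a GAS in 6, whereas 3.44% of all 32851 promoter windows held the ISRE core, 8.3% a GAS and 0.454% both. In Irgm2, Igtp, Tgtp1, Tgtp2 and Gm12185 the GAS and the ISRE core followed each other with 2 bases between them, between 88 and 25 bases before the start. Irgm1 held 2 overlapping ISRE cores (GAAATAGAAA and GAAACCGAAA) and no GAS in this window, and Gm12250 held its ISRE cores on the opposite strand, on either side of the GAS. The windows of Tgtp2 and Gm12185 were 93.4% identical and those of Irgm2 and Igtp 73.7%. A match describes letters and is not a measured binding site.

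In the deposited table (mm10, Gencode vM18) the 7 members named above with promoters sit in 2 neighbourhoods of chromosome 11. Irgm1 (48861968 to 48871683), Gm12185 (48904656 to 48992226), Tgtp1 (48985327 to 48994172) and Tgtp2 (49057194 to 49064206) lie on the minus strand, and Gm12250 (58187739 to 58189012), Igtp (58199556 to 58207591) and Irgm2 (58199618 to 58222782) on the plus strand. Gm4951 (60212080 to 60247820), Iigp1 (60376029 to 60392627) and BC023105 (60441753 to 60442983) lie on the plus strand of chromosome 18. Fragments were counted over exons and for each gene where genes overlapped. Irgm2 and Igtp share 162 exon bases on the same strand, which is 4.39% of the Irgm2 exons and 8.01% of the Igtp exons, and Tgtp1 and Gm12185 share 223, which is 6.96% and 3.99%. The coding sequences of Tgtp1 and Tgtp2 are 99.7% identical (1241 of 1245 aligned bases), so fragments that aligned to both were dropped as not unique and the split between these genes is uncertain. Gm12250 was counted over a single exon interval of 1274 bases, which lies downstream of its RefSeq start. The counted model of Irgm2 begins at 58199618, upstream of its promoter window (58214727 to 58215026). On the minus strand, those of Gm12185 (48992226) and Tgtp1 (48994172) also begin upstream of theirs (48927133 to 48927432 and 48992197 to 48992496). Irgm1 (48871683) begins just beyond its window, which ends at 48871670. These windows therefore do not lie at the 5′ end of the counted models.

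Before treatment the summed level of the 10 genes came almost wholly from the regulators. The 10 genes summed to 40.3 to 62.1 CPM in the clone means, and the 3 regulators made up 92.0% to 94.7% of it. This share leaves out IRG genes beyond the 10 that also had a basal level. Of these, Gm5431 lay at 11.6 to 18.9 CPM and Ifi47 at 4.46 to 7.79 CPM in the untreated clone means. Irgm1, the regulator that protects lysosomes and other endomembranes from effector loading, was measured in untreated cells at 22.4, 24.5 and 24.2 CPM in WT1, 40.0, 38.4 and 37.3 in WT2, 32.4, 34.3 and 33.4 in WT3, 23.9, 26.7 and 24.2 in KO1, and 25.26, 24.96 and 25.97 in KO2. WT2 and WT3 lay above all other libraries, and WT1 lay with the KO clones. Irgm2, a regulator found at the Golgi, stood at 8.15, 8.87 and 9.44 CPM in WT1, 10.7, 11.5 and 10.1 in WT2, 9.55, 10.4 and 10.7 in WT3, 5.84, 5.88 and 5.12 in KO1, and 5.52, 6.22 and 6.08 in KO2. Every KO library lay below every WT library. Igtp, the regulator also known as Irgm3, stood at 8.30, 9.20 and 8.32 CPM in WT1, 9.43, 9.91 and 8.87 in WT2, 7.64, 7.63 and 8.39 in WT3, 6.80, 6.20 and 6.70 in KO1, and 7.29, 6.88 and 7.96 in KO2, so that KO2 overlapped WT3.

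Among the 7 listed effectors, Gm12185 alone had a steady basal level. This does not extend to the IRG genes outside the 10. Gm5431 and Ifi47 also had a basal level, and their class was not read from sequence. This tandem IRG, which RefSeq also lists as Irgb2b1, was at 2.013 to 2.999 CPM in all 15 untreated libraries (45 to 74 fragments each) and supplied 76.1% to 85.9% of the summed effector level. The other 6 effectors together reached 0.387 to 0.713 CPM. Untreated libraries held 0 to 12 fragments of Iigp1 (Irga6, the best-studied vacuole-coating effector), 0 to 3 of Tgtp1 (Irgb6), 0 to 5 of Tgtp2, 1 to 8 of Gm4951, 0 to 10 of Gm12250 (Irgb10, an effector that attacks bacterial membranes) and 0 to 1 of BC023105, which RefSeq lists as a pseudogene. BC023105 had 0 fragments in all 9 untreated libraries of WT2, WT3 and KO2. At such counts the clones could not be ordered.

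**Figure D1:**
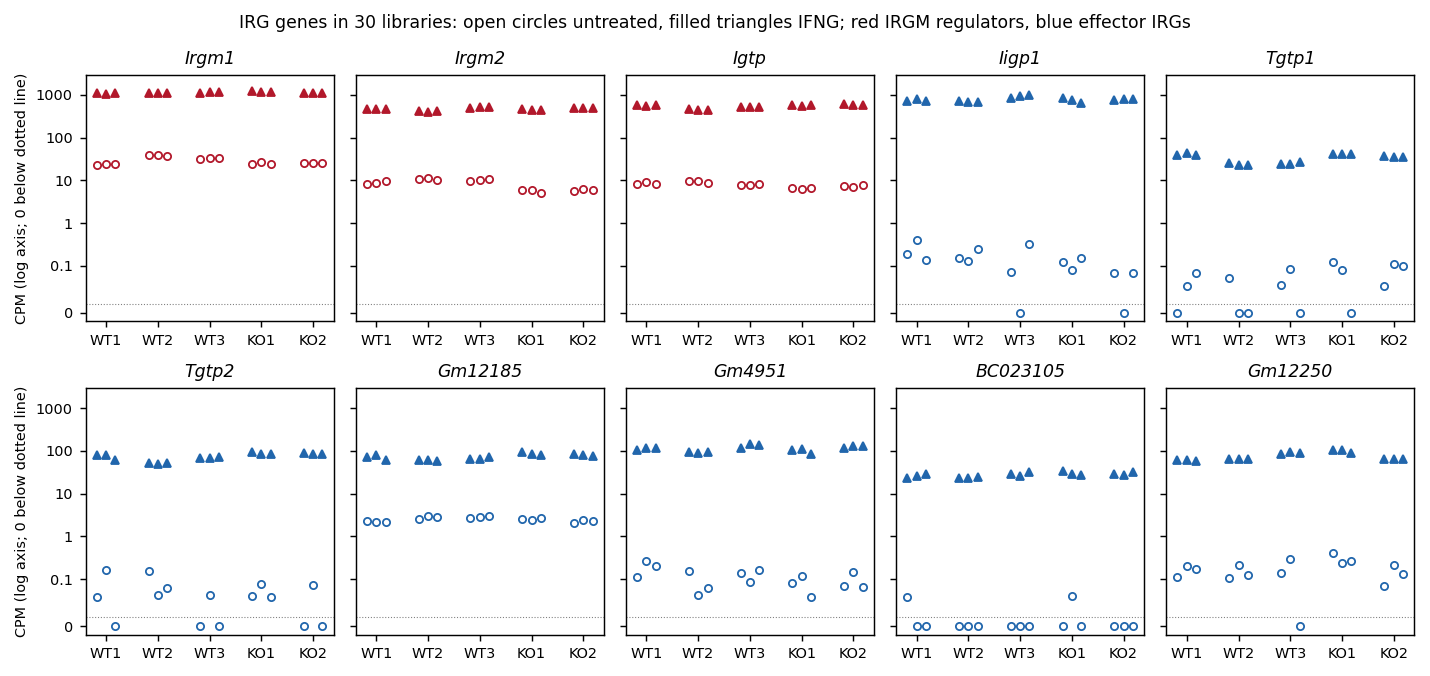
CPM on a log axis of the 10 IRG genes in each of the 30 libraries, by clone, with open circles for untreated and filled triangles for IFNG, and with counts of 0 drawn below the dotted line. In every panel all 15 IFNG libraries sit above all 15 untreated libraries, and the 3 regulators (red) and Gm12185 have a basal level above 1 CPM while the other 6 genes lie near 0.

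Per kilobase of exon, which allows levels of different genes to be set side by side, the untreated order over all 15 libraries was Irgm1 (5.03 CPM per kb), Igtp (3.94), Irgm2 (2.24) and Gm12185 (0.454), followed by Gm12250 at 0.142 and the other 5 genes at 0.0461 or less. In WT1 the Irgm1 mean (4.08 ± 0.20, SD, n = 3) and the Igtp mean (4.26 ± 0.26) did not differ beyond their spread, while in WT2 Irgm1 stood at 6.64 ± 0.24 and Igtp at 4.65 ± 0.26. After IFNG the order was Igtp (267.0 CPM per kb), Iigp1 (251), Irgm1 (196), Irgm2 (126), Gm12250 (59.5), Gm4951 (42.5), Tgtp2 (25.1), BC023105 (22.5), Gm12185 (13.1) and Tgtp1 (10.4). The clone means of Igtp (224 to 294) and Iigp1 (224 to 298) overlapped, as did those of Tgtp2 (17.6 to 29.9) and BC023105 (19.4 to 24.7), and the ranges of Gm12185 (10.8 to 15.2) and Tgtp1 (7.27 to 13.1) overlapped. Irgm1 (188 to 204) and Irgm2 (112 to 138) had ranges of their own, while those of Gm12250 (47.2 to 78.2) and Gm4951 (34.9 to 50.2) overlapped. Fragments shared by Tgtp1 and Tgtp2 were dropped while the full exon length was the divisor. The level of Tgtp2 per kb is therefore a lower limit. Tgtp1 has the same loss, but fragments in the 223 exon bases that it shares with Gm12185 counted for both genes. Its level per kb may thus be too low or too high, and the places of Tgtp1 and Tgtp2 in the order are uncertain. A single effector, Iigp1, stood among the regulators, and the median of the 7 effectors was 19.4 to 29.9 CPM per kb against 188 to 204 for the 3 regulators.

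**Figure D2:**
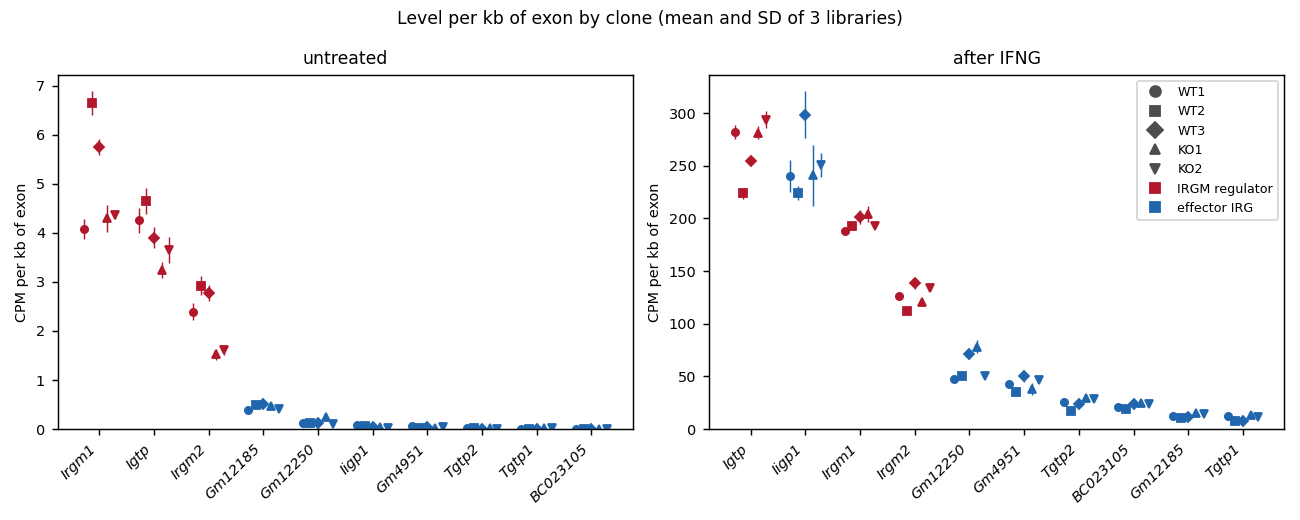
Level in CPM per kb of exon for each gene and clone (symbols, with SD of 3 libraries), untreated on the left and after IFNG on the right, each ordered by the mean over clones. Irgm1, Igtp and Irgm2 lead the untreated panel at 1.52 to 6.64 CPM per kb, and after IFNG Iigp1 reaches 224 to 298, the range of Igtp, while the other effectors stay at or below 78.2.

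IFNG raised all 10 members in all 5 clones. With edgeR's quasi-likelihood test and Benjamini-Hochberg adjustment, 10 of 10 members were called higher in WT1, where 11.8% of all tested genes were called higher, and 10 of 10 in WT2 (17.4% of all genes), WT3 (18.6%), KO1 (16.2%) and KO2 (13.9%). The largest adjusted p-value of a member in any clone was 1.46e-12, for BC023105 in WT1. Summed over the 10 genes, the level rose from 40.3 to 62.1 CPM to 3002 to 3540 CPM, or 0.3002% to 0.354% of the normalized library size. When the 12454 to 12618 genes per clone that reached 1 CPM in either treatment were ordered by response, the members ranked between 1 and 61 in every clone, with Iigp1 between 1 and 4. In bulk RNA, more cells with a transcript and more transcript per cell cannot be told apart.

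The regulators rose from their basal level 29.4-fold to 88.4-fold. Irgm1 went to a lowest, median and highest level of 1068, 1124 and 1200 CPM in the 9 WT libraries and 1111, 1139 and 1233 CPM in the 6 KO libraries, the highest member by CPM. Its log2FC was 5.51 ± 0.07 (SE) in WT1, 4.88 ± 0.04 in WT2, 5.14 ± 0.05 in WT3, 5.60 ± 0.07 in KO1 and 5.46 ± 0.05 in KO2. Irgm2 went to 405, 464 and 529 CPM in WT and 436, 473 and 505 CPM in KO libraries. Its log2FC was 5.71 ± 0.08 in WT1, 5.26 ± 0.05 in WT2, 5.66 ± 0.06 in WT3, 6.34 ± 0.07 in KO1 and 6.38 ± 0.06 in KO2, and the KO clones stood apart at the high end. Igtp went to 441, 516 and 586 CPM in WT and 556, 580 and 611 CPM in KO libraries. Its log2FC was 6.04 ± 0.08 in WT1, 5.59 ± 0.05 in WT2, 6.04 ± 0.05 in WT3, 6.47 ± 0.06 in KO1 and 6.33 ± 0.06 in KO2. WT2 had the smallest log2FC of all 3 regulators.

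The effectors rose from near 0, and their folds carry the error of a few untreated fragments. Intervals given here are exact 95% binomial (Clopper-Pearson) limits of a ratio of normalized counts and cover counting error only. Iigp1 went from 21 fragments in the 3 untreated WT1 libraries to 49391 after IFNG, a ratio of 3050 (2000 to 4930), and from 4 to 68648 in KO2, a ratio of 16700 (6510 to 61200). Its level after IFNG was 681, 725 and 992 CPM (lowest, median and highest) in WT and 652, 782 and 827 CPM in KO libraries. The WT and KO ranges overlapped, while all 3 libraries of WT3 (854, 948 and 992 CPM) lay above every library of the other clones. Gm4951, a neighbour of Iigp1 in the same gene cluster, rose by a ratio of 1010 (533 to 2210) in WT3 and 1320 (669 to 3060) in KO2, the lowest and highest of 4 clones, and less in WT1 (log2FC of 9.10), to 82.9 to 143 CPM. Gm12250 rose by a ratio between 326 (217 to 515) in KO1 and 566 (316 to 1140) in WT3, to 57.5 to 106 CPM.

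Tgtp1, Tgtp2 and BC023105 had at most 3 untreated fragments in some clones. Tgtp1 had 3, 1 and 3 fragments in untreated WT1, WT2 and WT3 and ratios of 1170 (401 to 5700), 1370 (246 to 54300) and 580 (198 to 2810), with 630 (270 to 1940) in KO1 and 438 (212 to 1090) in KO2. Tgtp2 had ratios of 1060 (487 to 2890) in WT1, 609 (261 to 1880) in WT2 and 1670 (653 to 6140) in KO1. With 1 untreated fragment in WT3 and 2 in KO2 its ratios there were 4810 (863 to 190000) and 3650 (1010 to 30200). BC023105 had 1 untreated fragment in WT1 and in KO1, with ratios of 2250 (404 to 89000) and 2310 (414 to 91300). Against the floor of 3 fragments over a group, it rose at least 467-fold in WT2, at least 667-fold in WT3 and at least 824-fold in KO2, and BC023105 reached 22.97 to 34.04 CPM over all clones.

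Gm12185 did not follow the other effectors among the 10 genes. Its log2FC was 5.01 ± 0.11 in WT1, 4.45 ± 0.08 in WT2, 4.57 ± 0.08 in WT3, 5.07 ± 0.09 in KO1 and 5.17 ± 0.09 in KO2, the smallest value among the 10 members in every clone. The median log2FC of the 3 regulators was 5.71 in WT1, 5.26 in WT2, 5.66 in WT3, 6.34 in KO1 and 6.33 in KO2. The median of the 7 effectors was 9.95 in WT1, 9.94 in WT2, 9.95 in WT3, 10.24 in KO1 and 10.31 in KO2, or 8.66, 8.87, 9.38, 9.22 and 9.69 with the genes at 3 or fewer untreated fragments set to their lower limit. The median of all genes tested lay between -0.01 and 0.00. Among the 10 genes, every effector apart from Gm12185 had a larger log2FC than every regulator in its clone. This held at these lower limits too, where the smallest such effector value was 7.63 and the largest regulator value 6.47. Of IRG genes outside the 10, Gm4841 (12.77 to 13.42) and F830016B08Rik (8.73 to 10.80) lay above the regulators. Ifi47 (5.32 to 5.80) lay within their range. Below it were Gm5431 (2.23 to 2.99), 9930111J21Rik1 and 9930111J21Rik2 (at most 2.33) and Irgq. The class of these outside genes was not read from sequence. The contrast of effectors with regulators therefore covers the 10 genes only and may depend on which genes were listed. Within the 10 genes the effectors took a larger part after IFNG: the share of the summed CPM from the regulators fell to 62.1% to 66.2%. With 10 genes chosen by name, these class values are a description and were not tested.

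**Figure D3:**
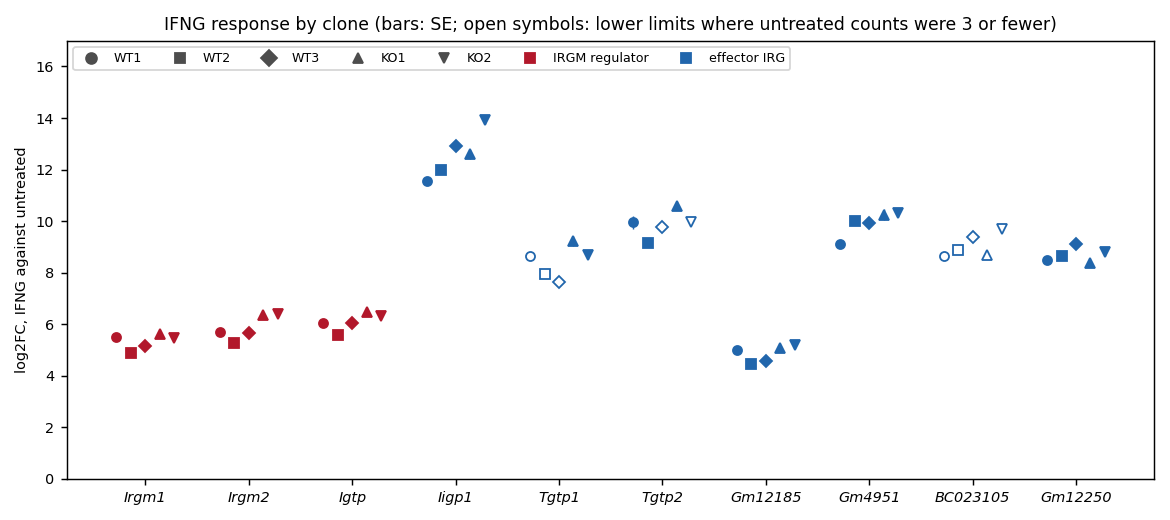
log2FC of IFNG against untreated for each member and clone, with SE, and with open symbols at the lower limit where untreated counts were 3 or fewer. The regulators (red) lie between 4.88 and 6.47 and Gm12185 between 4.45 and 5.17, while the other effectors lie between 7.63 and 13.91.

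Clones differed in the regulators before treatment. Tested over all 30 libraries, the untreated level differed among the 5 clones for Irgm1 (adjusted p = 3.99e-14), Irgm2 (1.89e-13) and Igtp (1.3e-06). These were 3 of 10 members called, where 70.8% of all genes were called, so such differences were common in these clones. Gm12185 (0.101) and the other effectors (0.138 to 0.594) did not pass the threshold. The filter on low counts took in the IFNG libraries, through which the effectors near 0 entered this test. In the untreated libraries alone, only 4 of the 10 members passed the filter for KO against WT. For the effectors near 0 a difference was hard to detect at this depth, so their missing calls are not evidence of equal levels. Iigp1, with 4 to 21 untreated fragments per clone, passed with DESeq2 (adjusted p = 0.0147), with no filter on low counts (0.0247) and without WT3 (0.0434). The IFNG response differed among clones for 4 of 10 members, against 3.68% of all genes: Irgm1 (adjusted p = 2.1e-09), Irgm2 (1.24e-10), Igtp (6.84e-08) and Gm12185 (0.00925). The Gm12185 call was lost without WT2 (adjusted p = 0.185) or without WT3 (0.0607).

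The comparison of KO with WT libraries asks whether the deletion of B2_Mm2.Dicer1 went along with a change in the family. In untreated cells 4 members could be tested and 3 of them were lower in KO, where 14.4% of all genes were called lower and 12.2% higher, and no member was called higher. Irgm2 had a log2FC of -0.78 ± 0.08 (adjusted p = 3.26e-06), a KO level 0.581 times that of WT. All 6 KO libraries lay below all 9 WT libraries for this gene, a separation seen in 5.43% of 12993 genes with at least 1 CPM in some group. Irgm1 had a log2FC of -0.34 ± 0.12 (adjusted p = 0.0437) and Igtp of -0.31 ± 0.07 (0.00519), while Gm12185 differed by -0.10 ± 0.10 (0.521). The Irgm1 call depended on the clones. Its log2FC was -0.18 (adjusted p = 0.237) without WT2 and -0.30 (0.151) without WT3, and -0.51 (2.91e-06) without WT1, whose level lay with the KO clones. It was also not called without KO1 (0.263) or KO2 (0.139). Irgm2 stayed called with each of the 5 clones left out in turn, at -0.86 to -0.72, and Igtp lost its call without KO1 (-0.22, adjusted p = 0.142).

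After IFNG 3 of 10 members were higher in KO, where 10.9% of all genes were called higher and 13% lower, and none was called lower. Tgtp2 had a log2FC of 0.40 ± 0.10 (adjusted p = 0.00762), Gm12185 of 0.34 ± 0.06 (0.00111) and Igtp of 0.19 ± 0.06 (0.0314). Tgtp2 lay at 49.2, 66.9 and 81.4 CPM (lowest, median and highest) in WT and 82.8, 84.3 and 95.3 CPM in KO libraries. These did not overlap, a separation with KO above WT that was seen in 3.37% of genes. Gm12185 lay at 58.7, 64.5 and 79.7 CPM in WT and 77.3, 83.0 and 92.3 CPM in KO libraries, which overlapped. Irgm1 (0.04 ± 0.04, adjusted p = 0.552) and Irgm2 (0.02 ± 0.06, 0.807), both called lower over the untreated KO libraries, did not pass the threshold after IFNG.

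Tgtp1 showed how far single clones carried these values. After IFNG it lay at 38.6, 40.2 and 44.8 CPM in WT1, 22.4, 22.6 and 24.9 in WT2, 24.3, 24.7 and 26.3 in WT3, 41.2, 41.9 and 42.4 in KO1, and 34.5, 35.4 and 36.8 in KO2. WT1 again lay with the KO clones, and the log2FC of KO against WT was 0.37 ± 0.15 (adjusted p = 0.0858) with all clones and 0.67 (1.03e-06) without WT1. Igtp after IFNG was at 559, 566 and 586 CPM in WT1, within the range of KO1 (556, 569 and 581) and KO2 (580, 592 and 611), and lower in WT2 (441, 455 and 461) and WT3 (510, 516 and 517). The Igtp call was lost without WT2 (0.10, adjusted p = 0.16), WT3 (0.18, 0.097), KO1 (0.21, 0.139) or KO2 (0.16, 0.192), and the Tgtp2 call without KO1 (0.37, 0.114). The Gm12185 call held without each of the 5 clones (adjusted p = 1.94e-05 to 0.0363). BC023105 passed without WT3 (0.25, 0.0319) and Gm12250 without KO2 (0.48, 0.0367). With the counts summed per clone, so that 3 WT clones stood against 2 KO clones, no member passed edgeR's test in either treatment (adjusted p = 0.242 or more), and the members at an unadjusted p under 0.05 were Irgm2 untreated and Tgtp2 and Gm12185 after IFNG. Of all genes, 1 passed in each treatment, with 1842 (untreated) and 1824 (IFNG) at an unadjusted p under 0.05. An exact permutation test over 3 and 2 clones cannot go below p = 0.1.

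**Figure D4:**
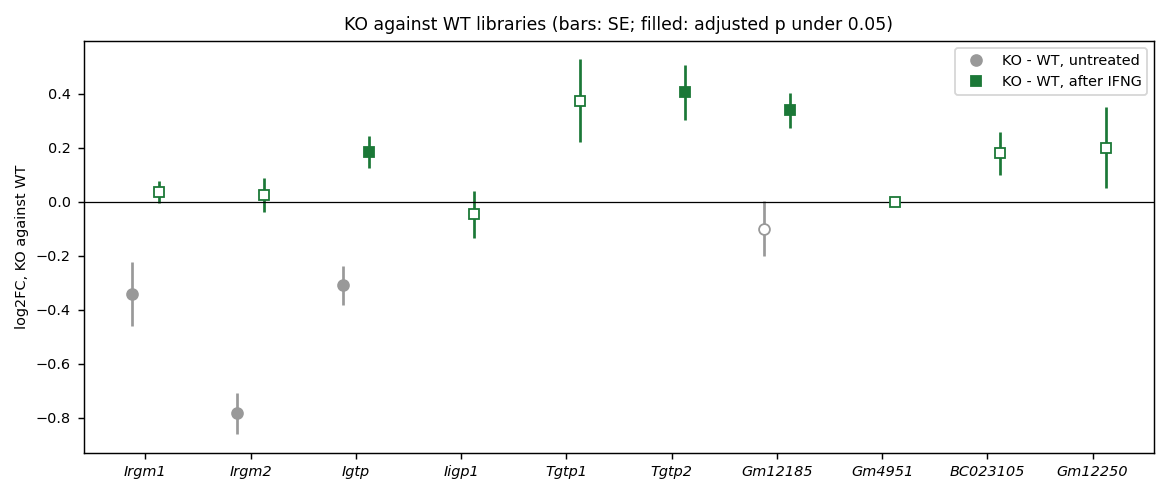
log2FC of KO against WT libraries with SE, untreated (grey circles, 4 genes tested) and after IFNG (green squares, 10 genes, without a bar for Gm4951, whose difference was near 0), filled where the adjusted p was under 0.05. Irgm1, Irgm2 and Igtp lie at -0.78 to -0.31 before treatment and at 0.02 to 0.19 after it.

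Over libraries, the response to IFNG was larger in KO for the regulators, but no call held with counts summed per clone. The treatment by genotype term of a fit over all 30 libraries was called higher in KO for 3 of 10 members, where 0.679% of all genes were called higher and 0.336% lower. It was 0.80 ± 0.08 for Irgm2 (adjusted p = 1.49e-07), 0.48 ± 0.08 for Igtp (0.000472) and 0.35 ± 0.09 for Irgm1 (0.0348). Gm12185 was at 0.41 ± 0.12 (0.11) and passed without WT1 (0.60, 0.000336). The other 6 effectors, at -0.76 to 1.08, were not called (adjusted p = 0.562 or more), and with hardly any untreated fragments their response could not be compared closely. Irgm2 kept its call without each clone, at 0.67 to 0.89. Irgm1 was called without WT1 (0.52, 8.22e-07) and lost its call without any other clone (adjusted p = 0.117 to 0.501), and Igtp lost its call without KO1 (0.42, 0.0941). With counts summed per clone and treatment, an alternative chosen after seeing the data, edgeR called no member. The term was 0.80 for Irgm2 (adjusted p = 0.0814), 0.49 for Igtp (0.488) and 0.34 for Irgm1 (0.853). At an unadjusted p under 0.05 were 5 members (these 3, Gm12185 and Iigp1) and 876 of all genes, of which 2 were called. The KO and WT levels of Irgm2 lay apart before IFNG and overlapped after it, as the CPM values above show.

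**Figure D5:**
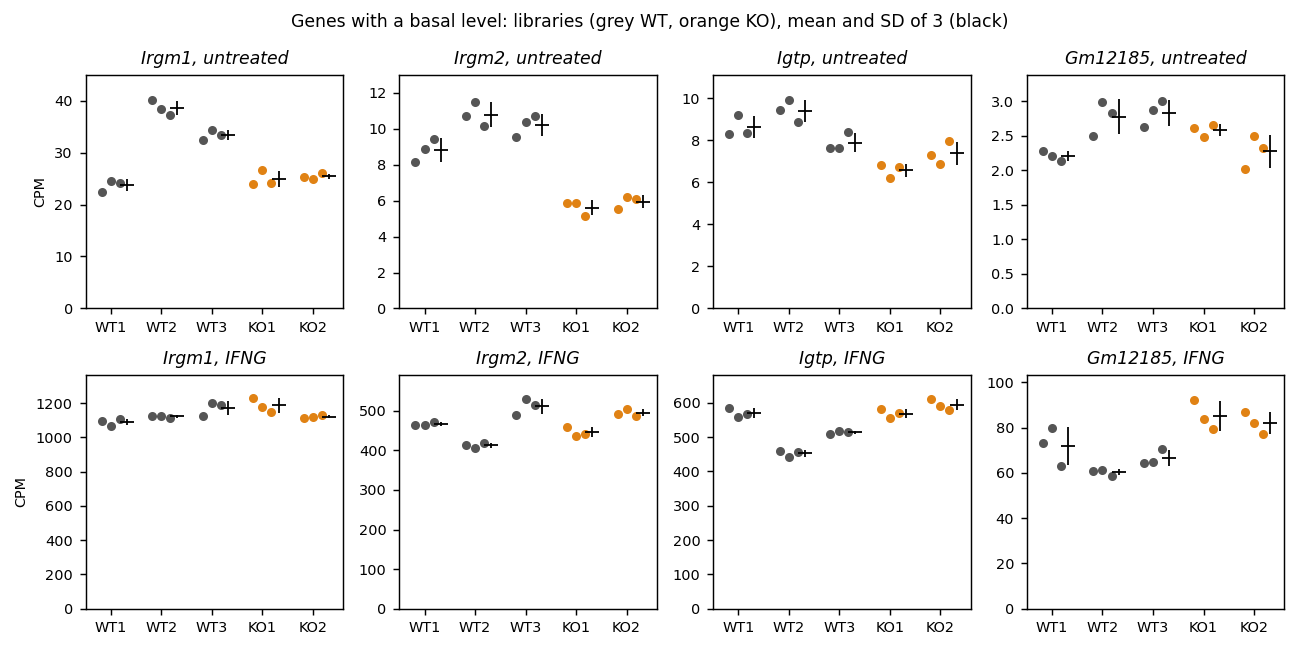
CPM of the 4 members with a basal level in each library (grey WT, orange KO) with the mean and SD of 3 libraries in black, untreated above and after IFNG below, on linear axes from 0. Untreated Irgm2 is at 5.12 to 6.22 CPM in the KO clones and 8.15 to 11.5 in the WT clones, while untreated Irgm1 of WT1 (22.4 to 24.5) lies with KO1 and KO2 (23.9 to 26.7).

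As a description of the chromosomes that hold the family, without the members, the median difference of 1065 genes of chromosome 11 from the WT clones, less that of all genes, was -0.02 in untreated KO1 and -0.01 in untreated KO2 on the log2 scale, and -0.03 to 0.02 in the WT clones, each against the other WT clones. After IFNG chromosome 11 lay at -0.02 to 0.01 over the 5 clones. The 319 genes of chromosome 18 lay at -0.07 to 0.04 untreated and -0.08 to 0.06 after IFNG, with WT1 lowest in both. Ifi47, an IRG of the chromosome 11 cluster that is not among the 10 and was chosen after its values were seen, had log2FC values after IFNG of 5.32 to 5.80. It differed between KO and WT by -0.27 ± 0.14 untreated (adjusted p = 0.162) and -0.07 ± 0.12 after IFNG (0.693).

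Patterns over the 30 libraries were dominated by the treatment, which all IFNG-induced genes share. The members correlated with each other at Pearson r of 0.9907 or more on the log2(CPM + 0.5) scale. Among 12983 other genes the nearest to Irgm1 were Cxcl10 (r = 0.9976) and Parp14 (0.9976), to Irgm2 Gbp9 (0.9976) and Parp14 (0.9968), and to Igtp the guanylate-binding protein genes Gbp2b (0.9995) and Gbp2 (0.9994). For the effectors they were Gm4841 (0.9987) and Gbp10 (0.9986) for Iigp1, Serpina3f (0.9978) and Serpina3g (0.9977) for Tgtp1, and Gbp2b (0.9989) and F830016B08Rik (0.9981) for Tgtp2. Gm12185 had Gbp2b (0.9974) and Serpina3f (0.9971), Gm4951 had F830016B08Rik (0.9988) and Gm4841 (0.9986), BC023105 had F830016B08Rik (0.9989) and Gbp2b (0.9986), and Gm12250 had F830016B08Rik (0.9976) and Gbp5 (0.9975).

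Of 7 further IRG genes, 6 could be tested and 5 rose in every clone. Gm4841, at 0 fragments in all untreated libraries, reached 40.5 to 64.0 CPM in the clone means. F830016B08Rik reached 40.5 to 59.5 CPM from at most 0.118, and Gm5431 had a basal level of 11.6 to 18.9 CPM and a smaller log2FC of 2.23 to 2.99. The tandem genes 9930111J21Rik1 and 9930111J21Rik2 (named after their values were seen) had log2FC values of 1.64 to 2.33 and 1.44 to 2.09. Irgq, also named so, was lower in WT3 and KO2 (log2FC of -0.24 and -0.20). The pathway that leads to the IRG genes changed as a mixture of directions. Of 9 signalling genes, 6 were called higher in WT1 and 7 in each other clone, and 2 were called lower in all 5. Of all genes, 11.8% to 18.6% were called higher per clone, and 9.47% (WT1), 17% (WT2), 17.5% (WT3), 13.2% (KO1) and 13.2% (KO2) lower. Irf1, the transcription factor that IFNG induces early, had log2FC values of 4.97 to 5.33 and Stat2 of 2.64 to 2.95, while both receptor chains were lower (Ifngr1 -0.71 to -0.38, Ifngr2 -0.69 to -0.14; named after their values were seen).

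In untreated KO cells 14.4% of all genes were called lower. Irf9 (-0.50 ± 0.10, adjusted p = 0.00188), Stat2 (-0.44 ± 0.08, 0.000504) and Jak2 (-0.13 ± 0.04, 0.0453) were among the signalling genes called lower. Of the 9 signalling genes, 5 were not called: Irf1 (-0.14, adjusted p = 0.295), Jak1 (-0.06, 0.395), Irf8 (0.10, 0.592), Ifngr1 (0.09, 0.25) and Ifngr2 (0.06, 0.348). The pathway thus did not move as a whole. Irf9, Jak2, Jak1, Irf8 and both receptor chains were named after their values were seen. Over libraries, the untreated levels of Stat2 and Irf9 lay lower in KO, as did those of the 3 regulators. For Irgm1 this rested on WT2 and WT3, since WT1 lay with the KO clones, and Igtp of KO2 overlapped WT3. Whether the signalling genes bear on the regulators was not tested. The treatment by genotype term was called higher for Irf9 (0.35 ± 0.07, adjusted p = 0.00668) and Ifngr2 (0.30 ± 0.07, 0.0138), both named after their values were seen. After IFNG Ifngr2 was higher (0.38 ± 0.07, 0.000997) and Stat2 lower (-0.23 ± 0.07, 0.0308) in KO. Of the 4 further IRG genes tested untreated, Gm5431 was lower in KO (-0.39 ± 0.11, 0.0156). The KO calls of the signalling genes and Gm5431 are over libraries of 3 WT and 2 KO clones. With counts summed per clone, 1 gene of all passed in each treatment and 2 for the treatment by genotype term. Values of these genes with a clone left out are not given here.

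The ATG8 conjugation genes, whose products steer IRG proteins to vacuoles, moved little. Of 10, 1 was called higher in WT1, against 11.8% of all genes, and 3 in each other clone, against 13.9% to 18.6%, and Atg5 was called lower in WT2 (-0.17). Atg16l1 rose in 5 of 5 clones (log2FC 0.37 to 0.66), Atg12 in 4 (0.20 to 0.25 over all clones) and Map1lc3b in 3 (at most 0.29). Of the ubiquitin factors that follow IRG loading, Trim21 (2.27 to 2.60) and Traf6 (0.27 to 0.48) rose and Sqstm1 (p62) fell (-0.46 to -0.33) in every clone. In KO against WT untreated, Atg16l1 was higher (0.35) and Gabarapl1 (-0.38), Map1lc3b (-0.17) and Atg7 (-0.19) were lower. After IFNG Atg16l1 (0.27), Atg5 (0.14) and Gabarap (0.13) were higher and Gabarapl1 (-0.45) and Map1lc3b (-0.21) lower, of which Atg5, Atg7, Gabarap and Gabarapl1 were named after their values were seen. None of the 3 ubiquitin factors was called between KO and WT in either treatment. The KO calls of the ATG8 genes carry the same limit of 3 WT and 2 KO clones.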

How the data were processed

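Polyadenylated RNA of 30 J774A.1 libraries was profiled, in 10 groups of 3 (5 clones, UT or IFNG). The authors deposited raw counts, whole fragments assigned to each gene. Their steps, per the methods and labels, were BBDuk trimming, HISAT2 2.1.0 alignment to mm10, removal of fragments without a unique alignment, merging of technical replicates, and reversely stranded counting by featureCounts 1.6.2. The deposited table's header names Gencode vM18 as the exon annotation, whereas the methods name RefSeq, and the header was followed. A fragment in several genes counted for every one of them. The exon length deposited beside the counts gave levels per kb. Of 14 tables, 13 hold subsets of the libraries and were not used. Columns carry no replicate number, and those of WT2 and WT3 bear other clone names and were assigned through the table deposited for each clone.

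Tests used edgeR 4.0.16 under R 4.3.3, with TMM, filterByExpr, glmQLFit and glmQLFTest, and p-values were adjusted over all genes tested by the Benjamini-Hochberg method with a threshold of 0.05. An SE was derived from log2FC and the F value (log2FC over the root of F, without sign). Responses used the 6 libraries of a clone, KO against WT 9 and 6 libraries of a treatment, and the treatment by genotype term and the tests among clones all 30. CPM used TMM factors over 14870 genes. Sequences came from GENCODE vM21 transcripts and RefSeq promoter windows, read with Python 3.11.15 and aligned globally with Biopython 1.88. Genes were named by a fixed rule: all 10 members, the 3 list genes with the largest change, and for each member the 2 genes of nearest pattern. The members and lists were chosen with earlier results of these data known. The tests were checked on simulated counts in which libraries varied independently, without the spread between clones. That check cannot speak to KO against WT, where libraries are grouped in 5 clones. Alternatives were DESeq2 1.42.0, RLE normalization, no filter on low counts, 1 fit over all 30 libraries, counts summed per clone, and leaving out each clone. Leaving out each library, and summing per clone for the treatment by genotype term, were chosen after seeing the data. Counted fragments per library (15566122 to 37992642) set the precision given by SE and intervals. Values of 1 gene of the signalling list are not reported here.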

Additional observations from a re-analysis of the deposited data

Results flagged for a closer look

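Over the 30 libraries, the treatment by genotype term was called for Irgm2 (log2FC in KO minus WT of 0.80, adjusted p = 1.49e-07), Igtp (0.48, 0.000472) and Irgm1 (0.35, 0.0348). These libraries come from 5 clones, and with counts summed per clone none of them was called (adjusted p = 0.0814, 0.488 and 0.853). The Irgm1 call was also lost without any 1 of WT2, WT3, KO1 or KO2 (0.117 to 0.501), and the Igtp call without KO1 (0.0941). Irgm2 and Igtp were higher in response in both KO clones than in all 3 WT clones, whereas Irgm1 in WT1 (log2FC of 5.51) exceeded that in KO2 (5.46). The response also differed among the 5 clones for Irgm1 (adjusted p = 2.1e-09), Irgm2 (1.24e-10), Igtp (6.84e-08) and Gm12185 (0.00925).

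Of 40 groups of pooled libraries screened for a single library far from the rest, 2 had one, and chance gives about 1 in 20. Both were BC023105 in untreated cells, at 0.0379 CPM in a WT1 library and 0.0395 CPM in a KO1 library, each a single fragment where all other libraries of that genotype had 0.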

How the results depend on the processing

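All 10 members were called higher after IFNG in every clone under DESeq2, RLE normalization, no filter on low counts, 1 fit over all 30 libraries and each library left out. The KO comparisons depended on the clones. For KO against WT untreated, 3 members were called lower (3689 genes called in all), against 1 without KO1 (1674 genes) and 0 with counts summed per clone (1 gene), and 6472 genes were called without WT1. For KO against WT after IFNG, 3 members were called higher (3258 genes), against 1 without KO1 (1411) and 0 with counts summed per clone (1), and 5992 genes without WT1. For the treatment by genotype term, 3 members and 151 genes were called, against 384 genes with no filter on low counts, 564 without WT1, 37 without WT2, 82 without WT3 and 21 without KO1, where 1 member was left, and 2 genes and 0 members with counts summed per clone, which was added after seeing the data. The response among 5 clones was called for 547 genes, 919 with no filter on low counts and 319 without WT3. The causes were not tested, beyond fewer libraries or clones in these fits.

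The median log2FC of the effectors moved under DESeq2 to 10.06 in WT1, 10.10 in WT2, 10.01 in WT3 and 10.38 in KO2. Leaving out 1 library at a time gave effector medians of 9.38 to 10.06 in WT1, 9.36 to 10.67 in WT2, 9.89 to 10.09 in WT3, 9.91 to 10.62 in KO1 and 10.11 to 10.74 in KO2, and regulator medians of 5.65 to 5.76, 5.22 to 5.31, 5.61 to 5.69, 6.27 to 6.38 and 6.28 to 6.38. It gave 107 to 243 genes for the treatment by genotype term. The call of untreated Irgm1 in KO against WT was lost in 12 of 15 such fits, that of Igtp after IFNG in 12 of 15 and that of Irgm1 in the treatment by genotype term in 16 of 30.

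Uncalled differences changed sign in KO against WT after IFNG: Irgm1 without KO1 (-0.0133), Irgm2 without WT2 (-0.0553) and without KO2 (-0.0476) and at -0.0019 to 0.0465 with libraries left out, Iigp1 without WT3 (0.0825), Gm4951 with no filter (0.0120), without WT3 (0.13), without KO1 (0.13) and at -0.0428 to 0.0708 with libraries left out, and Gm12250 without KO1 (-0.15). For the treatment by genotype term they changed sign for BC023105 under DESeq2 (0.23), without WT2 (0.15), WT3 (0.33) or KO1 (1.04) and at -0.94 to 1.07 with libraries left out, and for Gm12250 without KO1 (0.0346). No paired analysis was possible because the columns carry no replicate number, and leaving out a replicate number of every group was not run for the same reason. Depth limits the 6 effectors near 0 in untreated cells: their basal differences and exact folds are not resolved.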
